A study of Homo sapiens with 3 samples.

Results

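Expression of 36 genes of NAD metabolism, sirtuins, poly(ADP-ribose) polymerases (PARPs) and kynurenine enzymes was examined in HaCaT cells, an immortalized line of human keratinocytes. The genes were taken from a fixed list and found by symbol and Entrez gene number, with 5 of them carrying an older symbol in the array annotation, for example PBEF1 for NAMPT. All 36 were present, read by 72 transcripts, among 23595 gene symbols read by 42947 transcripts in all. One single-colour NimbleGen array was made for each of 3 groups. The first was cells given 1 µM all-trans retinoic acid (ATRA, a hormone made from vitamin A) together with nicotinamide (ATRA+NIC). The others were cells given 1 µM ATRA without nicotinamide, and untreated control cells. Incubation lasted 36 h. No nicotinamide dose stands in the labels, and cells with nicotinamide but no ATRA were not measured. With 1 array per group there is no error between cultures, so no test between groups was possible and every difference describes these arrays.

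NAD is a redox cofactor that is also consumed by signalling enzymes. Sirtuins, PARPs and NAD glycohydrolases split it and release nicotinamide, and NAMPT with the NMNAT enzymes turns nicotinamide back into NAD. Nicotinic acid enters through NAPRT and NADSYN1, and tryptophan enters through the kynurenine route, which ends in QPRT. Nicotinamide, added to cells on 1 of these arrays, is both the substrate of NAMPT and an inhibitor of sirtuins and PARPs.

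Levels are log2 intensities averaged over the transcripts of a gene, and each transcript was read by 3 probes. A gene entered the counts when its level was at or above 7.95, the median over the genes of all arrays, on at least 1 array. Of the 36 genes 20 did so, of 12467 in all, and 16 did not. The median transcript intensity lay between 297.9 and 302.3 on the 3 arrays, and the random control probes lay between log2 levels of 4.20 and 4.29. A fold is written as "at least" where the dimmer group had a transcript below an intensity of 50 (log2 5.64), which was then set to 50. All 10 keratinocyte markers examined passed the filter on level, against 5 of 14 leukocyte, 2 of 9 fibroblast, 1 of 6 melanocyte and 1 of 7 endothelial markers.

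The only measure of scatter was technical. Between transcripts of 1 gene the log2 differences had a pooled SD of 0.24 for ATRA against control, 0.24 for ATRA+NIC against ATRA and 0.24 for ATRA+NIC against control in the 13 listed genes above the filter with more than 1 transcript. In the 11 listed genes under the filter with more than 1 transcript the SDs were 0.85, 0.87 and 0.90 in these comparisons. Differences of the dim genes thus carried more technical scatter.

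**Figure D1:**
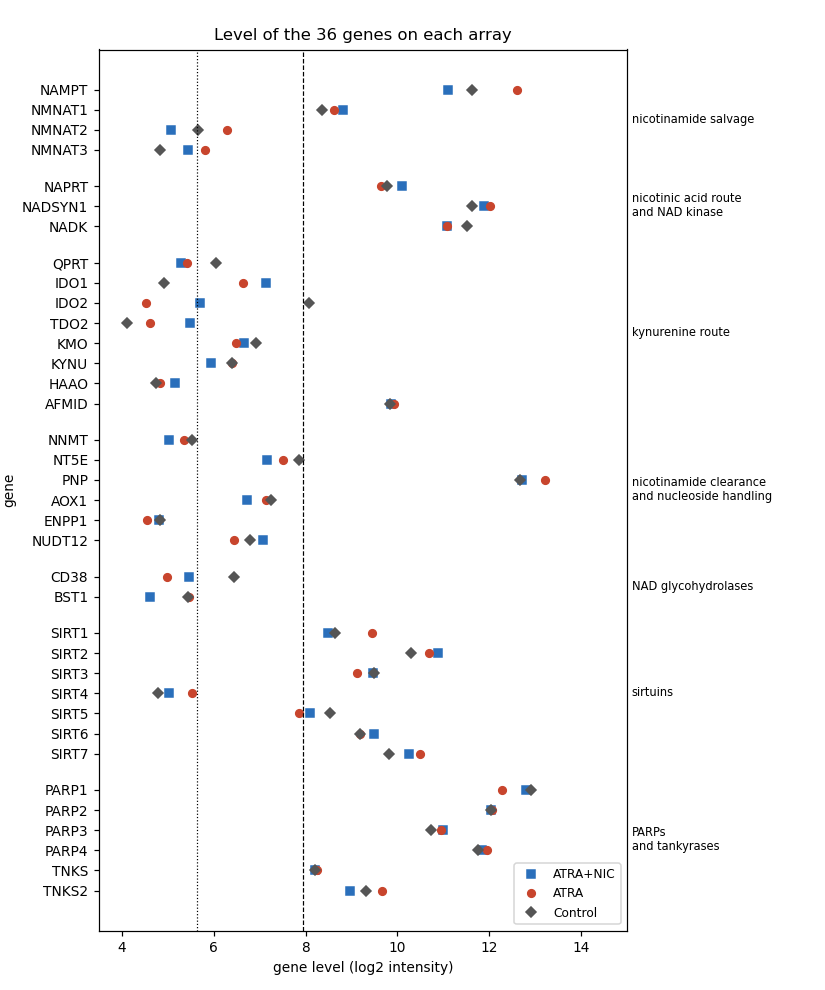
Level of each of the 36 genes (log2 intensity, horizontal axis) on the ATRA+NIC (squares), ATRA (circles) and control (diamonds) arrays, by role. The dashed line marks the filter at 7.95 and the dotted line an intensity of 50. NAMPT, SIRT1 and PNP were highest on the ATRA array, PARP1 was lowest there, and IDO2 was above the filter on the control array alone.

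The promoters of NAMPT and SIRT1 are shown because these genes alone passed the filter and were at least 1.5-fold higher with ATRA than in control and at least 1.5-fold lower with ATRA+NIC than with ATRA. The sequences are those of RefSeq on GRCh38.p14, 5′ to 3′, from 250 bases before to 50 after the start, and capitals mark every match to the motifs searched.
NAMPT, chr7:106284934-106285233, minus strand: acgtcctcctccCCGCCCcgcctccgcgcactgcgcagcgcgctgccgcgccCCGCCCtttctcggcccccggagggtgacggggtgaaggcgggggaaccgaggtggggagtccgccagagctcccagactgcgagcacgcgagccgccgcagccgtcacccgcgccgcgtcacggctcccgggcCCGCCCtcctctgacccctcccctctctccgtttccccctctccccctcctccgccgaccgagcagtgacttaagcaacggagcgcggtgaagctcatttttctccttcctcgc
SIRT1, chr10:67884406-67884705, plus strand: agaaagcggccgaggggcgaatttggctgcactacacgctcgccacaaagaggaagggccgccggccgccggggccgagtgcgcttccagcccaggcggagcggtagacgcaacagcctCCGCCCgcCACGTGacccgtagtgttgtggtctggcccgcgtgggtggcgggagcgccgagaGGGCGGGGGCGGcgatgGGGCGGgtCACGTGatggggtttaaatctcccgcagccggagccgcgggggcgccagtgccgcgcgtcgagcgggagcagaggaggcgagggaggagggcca
A set of 5 short motifs was searched on both strands, and a promoter was counted when it held at least 1 match. NAMPT held 3 GC boxes (GGGCGG), and SIRT1 held 4, of which 2 stand end to end, beside 2 E-boxes (CACGTG) at −123 to −118 and −44 to −39 from the start. The G and C content was 73.0% for NAMPT and 72.7% for SIRT1, against a median of 58.3% over 27305 promoters. Over the 27 listed genes with an entry the median was 65%. A GC box stood in 44.6% of all promoters and in 17 of the 27 listed genes with an entry, and an E-box in 7.43% of all and in 3 of the 27 (SIRT1, TNKS2 and AOX1). The retinoid receptor half-site AGGTCA stood in 13.9% of all and in 4 of the 27 (AFMID, NMNAT3, PARP3 and TDO2). The AP-1 element TGANTCA was found in 7.76% of all and in 1 of the 27 (TDO2), and the cyclic AMP response element TGACGTCA in 1.98% of all and in 2 of the 27 (PARP2 and SIRT4). NAMPT and SIRT1 held none of these last 3 motifs in this window. A match is a run of letters and says nothing of binding.

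Across the list few genes differed by 2-fold. For ATRA against control, 0 of the 20 genes above the filter were at least 2-fold higher, where 3.83% of all genes were, and 1, IDO2, was at least 2-fold lower, where 2.06% were. For ATRA+NIC against ATRA, 1 gene was at least 2-fold higher (IDO2; 1.35% of all genes) and 1 at least 2-fold lower (NAMPT; 3.74%). Between ATRA+NIC and control the counts were 0 higher (1.03%) and 1 lower (IDO2; 0.971%). Over all 36 genes with no filter, 1 (IDO1) was at least 2-fold higher with ATRA than in control (4.23% of all genes measured) and 2 (IDO2 and CD38) at least 2-fold lower (3.22%). Between ATRA+NIC and ATRA, 1 (IDO2) was higher (3.09%) and 2 (NAMPT and NMNAT2) lower (4.12%), and between ATRA+NIC and control 2 (IDO1 and TDO2) were higher (2.32%) and 1 (IDO2) lower (2.08%). All these counts used the measured values with no floor. With values under 50 set to 50, IDO1 was at least 1.98-fold higher and CD38 at least 1.56-fold lower for ATRA against control. For ATRA+NIC against ATRA, IDO2 was then at least 1.05-fold higher and NMNAT2 at least 1.55-fold lower. TDO2 was under 50 on every array. IDO2 passed the filter only through the control array, so its difference from that array was built into the selection. The median log2 difference of the 20 genes was 0.14, −0.01 and 0.01 in these comparisons, beside −0.04, 0.05 and −0.01 over all genes. The first comparison and the next share the ATRA array, and a value that is high there by scatter would be higher in one and lower in the other. The ATRA array was the highest of the 3 for 10 of the 20 genes, against 33.4% of all genes, and the lowest for 6, against 43.6%.

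**Figure D2:**
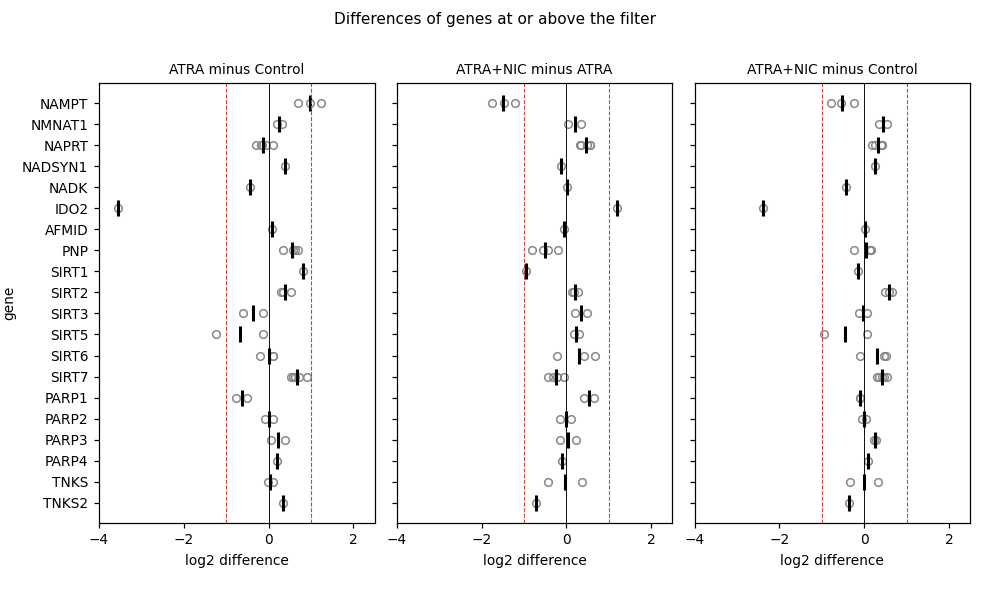
Log2 differences of the 20 genes above the filter in the 3 comparisons (panels). Open circles are single transcripts, bars are gene means and dashed lines mark 2-fold. Outside the lines lie the NAMPT mean for ATRA+NIC against ATRA and IDO2 in each panel, and the transcripts of NAMPT, SIRT7 and PNP fall on 1 side of 0 in the first 2 panels.

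In the nicotinamide salvage group, NAMPT carried the largest shift between the ATRA+NIC and ATRA arrays. NAMPT, the rate-limiting enzyme of this route, had a log2 level of 11.11 with ATRA+NIC, 12.60 with ATRA and 11.63 in control. The ATRA array was thus high and the ATRA+NIC array the lowest. NAMPT was 2.80-fold lower with ATRA+NIC than with ATRA, a log2 difference of −1.49 ± 0.27 (SD over 3 transcripts, which is technical), with all 3 transcripts lower. Against control it was 1.95-fold higher with ATRA, at 0.96 ± 0.28 over 3 transcripts, and 1.44-fold lower with ATRA+NIC, at −0.52 ± 0.28, again with the 3 transcripts on 1 side. Of the 12467 genes, 1.70% had a lower difference than NAMPT for ATRA+NIC against ATRA and 4.15% a higher one for ATRA against control.

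The 3 NAMPT entries cover chromosome 7 at 105677891 to 105712647 in the hg18 annotation of the files. The first, NM_005746, read 11.55 with ATRA+NIC, 12.77 with ATRA and 12.09 in control on the log2 scale. NM_182790 read 10.44, 12.20 and 11.23 on the same arrays, and BC072439 read 11.34, 12.81 and 11.58. All of them had the order ATRA, control, ATRA+NIC from high to low. A further entry of the array, named for the processed pseudogene NAMPTP1 on chromosome 10, read 11.42, 12.72 and 11.70 on the ATRA+NIC, ATRA and control arrays. Probes may bind both sequences, so the pseudogene's reading cannot be told apart from that of NAMPT.

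The NMNAT genes encode the enzymes that complete NAD from its mononucleotide, in the nucleus (NMNAT1), at Golgi and cytosol (NMNAT2) and in mitochondria (NMNAT3). NMNAT1 had log2 levels of 8.81, 8.61 and 8.36 on the ATRA+NIC, ATRA and control arrays. Its log2 difference of 0.45 between ATRA+NIC and control had the same sign in both transcripts, and neither treated array reached 1.5-fold above control. NMNAT3 was dim, at 5.43, 5.81 and 4.83, and its 3 transcripts were all higher with ATRA than in control, by at least 1.36-fold on average. That bound came from the brightest transcript alone, since the others were under 50 on both of these arrays. NMNAT2 was at 5.08, 6.28 and 5.65, and its transcripts gave opposite signs for ATRA against control, 2.16 and −0.90 on the log2 scale. With ATRA+NIC they were lower than with ATRA alike, by −1.28 and −1.13, an average of at least 1.55-fold. Of the 4 salvage genes, NAMPT and NMNAT1 passed the filter.

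The genes of the nicotinic acid route lay close together on the 3 arrays. NAPRT, which encodes the enzyme that takes up nicotinic acid into this route, had log2 levels of 10.11 with ATRA+NIC, 9.65 with ATRA and 9.77 in control. All 5 of its transcripts were higher with ATRA+NIC than with ATRA (0.46 ± 0.11, SD over transcripts), and 5 of 5 were higher than in control (0.33 ± 0.12). NADSYN1, the NAD synthetase gene, was at 11.89, 12.02 and 11.63 on these arrays, and NADK, the kinase gene that makes NADP, at 11.07, 11.07 and 11.51. None of these 3 genes reached 1.5-fold in any comparison. NAMPT and NAPRT, the entry genes of the amide and the acid, thus had opposite signs between the ATRA+NIC and ATRA arrays.

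**Figure D3:**
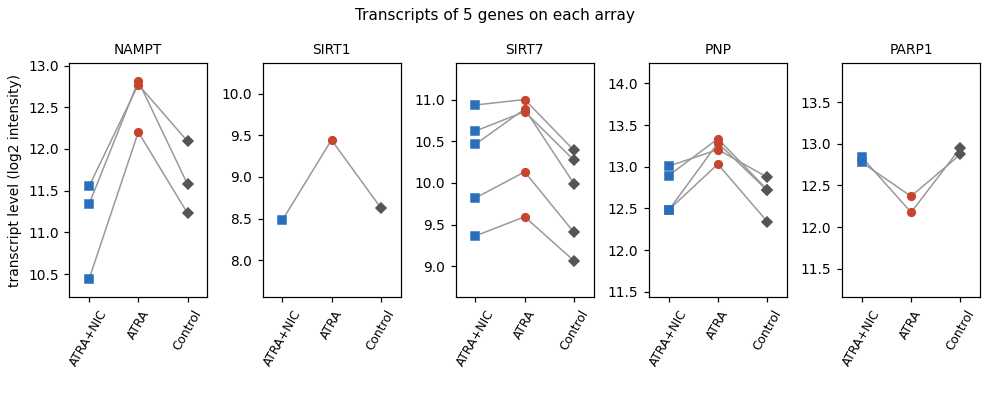
Level of every transcript of NAMPT, SIRT1, SIRT7, PNP and PARP1 (log2 intensity; the vertical axes span the same range) on the ATRA+NIC, ATRA and control arrays, with lines joining the values of 1 transcript. The 3 NAMPT transcripts peak on the ATRA array and the PARP1 transcripts are lowest there, while SIRT1 has 1 transcript.

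The kynurenine genes were mostly dim, and the genes of its first step differed in opposite directions. IDO1 and IDO2 encode indoleamine dioxygenases that open the tryptophan ring, and they neighbour each other on chromosome 8 with 6522 bases between them in hg18. IDO2 had a log2 level of 5.71 with ATRA+NIC, 4.52 with ATRA and 8.08 in control. The control array was the high one. IDO2 was at least 5.42-fold lower with ATRA and 5.18-fold lower with ATRA+NIC than in control. For ATRA+NIC against ATRA the measured log2 difference was 1.18, but with values under 50 set to 50 the fold was at least 1.05, so nearly all of it lay under that floor. IDO1 was under the filter on every array, at 7.13 with ATRA+NIC, 6.63 with ATRA and 4.91 in control. It was at least 2.80-fold higher with ATRA+NIC and at least 1.98-fold higher with ATRA than in control. Each was read by 1 transcript of 3 probes, so no transcript pair tests either value.

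TDO2, which encodes the liver enzyme of the same step, was under 50 on all arrays, at log2 levels of 5.48, 4.61 and 4.12 on the ATRA+NIC, ATRA and control arrays. AFMID, the formamidase gene of the next step, was the steadiest of the route at 9.86, 9.92 and 9.84. KMO, which hydroxylates kynurenine, was at 6.65, 6.48 and 6.92, with a brighter transcript at 8.62, 8.11 and 8.72. KYNU, the kynureninase gene, was at 5.95, 6.40 and 6.40, and its transcripts differed by 0.47 and −0.48 for ATRA against control. HAAO and QPRT, which act at the end of the route, read 5.15 and 5.29 with ATRA+NIC, 4.83 and 5.41 with ATRA, and 4.73 and 6.04 in control. Of the 8 kynurenine genes only AFMID passed the filter on all arrays, IDO2 passed on the control array, and 6 did not pass.

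Markers of leukocytes, in which IDO1, KYNU, CD38 and BST1 are also known, differed between the arrays. Their summed intensity was 3244 with ATRA+NIC, 5488 with ATRA and 2900 in control. Most of each sum came from CD68 alone, at log2 levels of 11.19, 11.73 and 10.79 on these arrays. Of the 14 markers, 13 were higher with ATRA than in control and 1 was higher with ATRA+NIC than with ATRA. PTPRC, which defines leukocytes, read 4.21, 7.24 and 5.07 on the log2 scale, and an intensity of 50 was reached by 5 of the 14 with ATRA+NIC, 11 with ATRA and 8 in control. Their part in the values of IDO1, IDO2, CD38 and KYNU was not tested. In RNA of a whole culture, a change in the number of cells of a type cannot be told apart from a change in RNA per cell.

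The genes that clear nicotinamide or handle nucleosides had 1 bright member. PNP encodes purine nucleoside phosphorylase, which also splits nicotinamide riboside. It had log2 levels of 12.72 with ATRA+NIC, 13.21 with ATRA and 12.66 in control. The ATRA array stood above the other two, which lay close together. All 4 transcripts were higher with ATRA than in control (0.55 ± 0.15) and lower with ATRA+NIC than with ATRA (−0.50 ± 0.25, SD over transcripts), both under 1.5-fold. PNP lies 111.5 kb from PARP2 on chromosome 14 in hg18, and PARP2 read 12.03, 12.05 and 12.04 on the ATRA+NIC, ATRA and control arrays.

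NNMT encodes an enzyme that methylates nicotinamide for excretion. On the ATRA+NIC, ATRA and control arrays its mean log2 level was 5.01, 5.36 and 5.53, under an intensity of 50 on each. Its brighter transcript read 5.70, 5.53 and 6.31. The NNMT transcripts differed by 0.45 and −0.79 for ATRA against control, so no direction can be given. AOX1, an oxidase gene for methylated nicotinamide, read 6.72, 7.14 and 7.25. NT5E, the gene of the ecto-nucleotidase CD73, read 7.17, 7.51 and 7.86, and both of its transcripts were lower with ATRA+NIC than in control, by 1.62-fold on average. ENPP1, an ectoenzyme gene, read 4.80, 4.56 and 4.84, with transcripts that differed by 0.75 and −0.27 for ATRA+NIC against ATRA. NUDT12, a hydrolase gene for NADH and NAD-capped RNA, read 7.08, 6.44 and 6.79, and for ATRA against control its brighter transcript was higher by 0.29 while the dimmer, at 4.88 with ATRA and 5.88 in control, was lower. These 5 genes did not pass the filter on any array.

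The NAD glycohydrolase genes CD38 and BST1 also lie side by side, 46.1 kb apart on chromosome 4 in hg18. CD38 had log2 levels of 5.46 with ATRA+NIC, 4.99 with ATRA and 6.43 in control. It was at least 1.56-fold lower with ATRA than in control, with both transcripts lower, but for ATRA+NIC against ATRA its transcripts gave 2.35 and −1.41. BST1 had means under 50 on all arrays, at 4.61, 5.46 and 5.44. Its brighter transcript was over 50 with ATRA and in control, and under 50 with ATRA+NIC. The CD38 entries thus gave no common order of the 3 arrays.

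**Figure D4:**
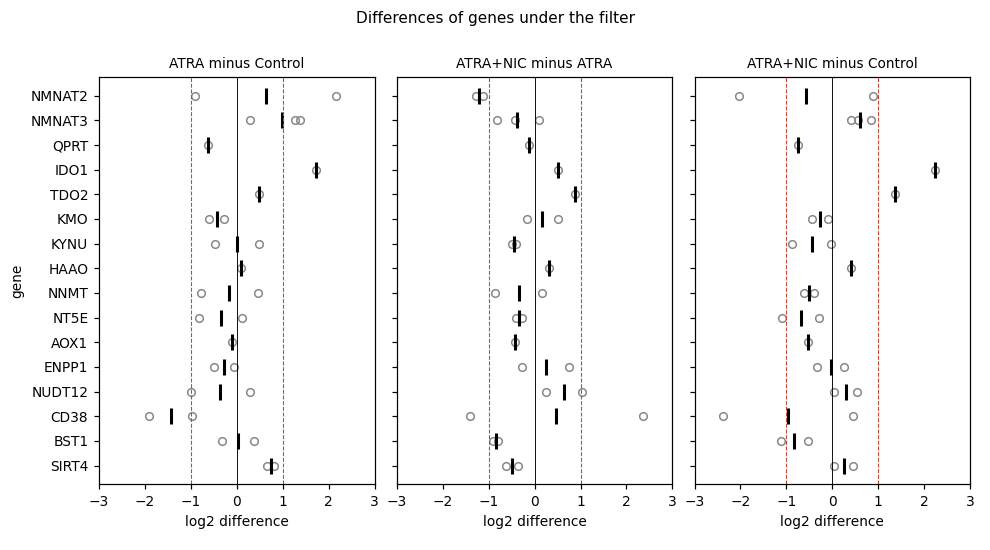
Log2 differences of the 16 genes under the filter in the 3 comparisons (panels), with single transcripts as open circles, gene means as bars and dashed lines at 2-fold. The transcripts of CD38 and NMNAT2 lie on opposite sides of 0 in 2 panels each, and the IDO1 and TDO2 bars rest on 1 transcript each.

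The sirtuin genes did not share 1 direction. SIRT1, the nuclear deacetylase inhibited by nicotinamide, had a log2 level of 8.48 with ATRA+NIC, 9.44 with ATRA and 8.63 in control. The ATRA array was high and the other two lay 0.15 apart. SIRT1 was 1.95-fold lower with ATRA+NIC than with ATRA and 1.76-fold higher with ATRA than in control, from 1 transcript, on chromosome 10 at 69314432 to 69348149 in hg18. Only 3.95% of all genes had a lower difference for ATRA+NIC against ATRA, and 5.90% a higher one for ATRA against control.

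SIRT7, a nucleolar sirtuin, read 10.24 with ATRA+NIC, 10.49 with ATRA and 9.83 in control. All 5 transcripts were higher with ATRA (0.67 ± 0.15) and with ATRA+NIC (0.42 ± 0.10) than in control. The control array was thus the low one, unlike for SIRT1. SIRT2, the mainly cytoplasmic tubulin deacetylase, read 10.88, 10.69 and 10.31 on these arrays, and its 3 transcripts were all higher with ATRA+NIC than in control (0.58 ± 0.09), which is 1.49-fold. SIRT6, a chromatin deacylase gene, read 9.48, 9.19 and 9.18, with transcripts of both signs in each comparison.

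The mitochondrial sirtuin genes were SIRT3, SIRT4 and SIRT5. SIRT3, the main mitochondrial deacetylase, read 9.47 with ATRA+NIC, 9.13 with ATRA and 9.50 in control, and both transcripts were lower with ATRA than in control. SIRT5, a desuccinylase, read 8.10, 7.86 and 8.54 and was 1.60-fold lower with ATRA than in control. That value rested on the dimmer of its transcripts, at −1.24, while the brighter differed by −0.12. SIRT4 had means under 50 on all arrays, at 5.03, 5.52 and 4.78. Its brighter transcript was over 50 on each, at 6.11, 6.46 and 5.65. Both SIRT4 transcripts were higher with ATRA than in control, by 0.81 and 0.66. The median log2 difference of the 7 sirtuin genes was 0.25 between ATRA+NIC and control and 0.38 between ATRA and control, beside 0.00 and −0.03 over all genes measured. The median of 0.25 is the value of SIRT4 itself, which did not pass the filter, so it rests on a dim gene. The median of 0.38 is the value of SIRT2. None of the 7 reached 1.5-fold between ATRA+NIC and control.

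Among the PARP and tankyrase genes, PARP1 had the largest difference between ATRA and control. PARP1, the main DNA-damage sensor of the family, had a log2 level of 12.81 with ATRA+NIC, 12.27 with ATRA and 12.91 in control. The ATRA array was the low one, and the other arrays lay 0.10 apart. PARP1 was 1.55-fold lower with ATRA than in control (−0.64 ± 0.19) and 1.45-fold higher with ATRA+NIC than with ATRA (0.53 ± 0.18), with both of its transcripts alike in sign. It lies on chromosome 1 at 224615128 to 224662414 in hg18.

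The other PARP genes differed less between ATRA and control. PARP2, described above with PNP, was within 0.02 on the log2 scale across the arrays. PARP3 read 10.98, 10.95 and 10.73, and PARP4, the vault particle PARP, 11.85, 11.95 and 11.75. The tankyrase genes TNKS and TNKS2 encode PARPs of telomeres and Wnt signalling. TNKS read 8.21, 8.25 and 8.21 with transcripts of opposite sign, and TNKS2 8.96, 9.67 and 9.32 on the ATRA+NIC, ATRA and control arrays. TNKS2, from 1 transcript, was 1.63-fold lower with ATRA+NIC than with ATRA. For ATRA against control, 3 of the 20 genes above the filter were at least 1.5-fold higher (NAMPT, SIRT1 and SIRT7), where 9.9% of all genes were, and 3 at least 1.5-fold lower (IDO2, SIRT5 and PARP1), where 8.99% were. For ATRA+NIC against ATRA, 1 was higher (IDO2; 7.88%) and 3 lower (NAMPT, SIRT1 and TNKS2; 9.47%). Between ATRA+NIC and control, 0 were at least 1.5-fold higher (3.96%) and 1, IDO2, at least 1.5-fold lower (3.87%).

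Further genes of the pathways were counted in 4 lists that share no gene with the 36. In the list of other PARP family and ADP-ribose hydrolase genes, 15 were above the filter. XRCC1 and HPF1, which belong to neither group, were among them. Of the 15, 1 was at least 2-fold higher with ATRA than in control, where 3.83% of all genes were. For ATRA+NIC against ATRA, 1 was at least 2-fold lower, where 3.74% were. Both counts were TIPARP, a mono-ADP-ribosyltransferase gene known as a target of the aryl hydrocarbon receptor. It read 7.54 with ATRA+NIC, 9.45 with ATRA and 7.87 in control from 1 transcript, 3.76-fold lower with ATRA+NIC than with ATRA and 2.99-fold higher with ATRA than in control. The list medians were 0.13 and 0.14 for ATRA against control and ATRA+NIC against ATRA, beside −0.04 and 0.05 over all genes.

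Of 14 companion genes of NAD synthesis and tryptophan use, 1 was at least 2-fold higher with ATRA than in control and 0 lower. Over all genes the shares were 3.83% and 2.06%. For ATRA+NIC against ATRA 0 reached 2-fold, where 1.35% of all genes were higher and 3.74% lower. The 1 was WARS1, the tryptophanyl-tRNA synthetase gene, at 13.71 with ATRA+NIC, 14.36 with ATRA and 13.07 in control, or 2.45-fold. The list medians were −0.25 and 0.11 in these comparisons. None of 6 other NAD-consuming or nucleotide-hydrolysing genes (medians −0.28 and 0.27) and none of 12 SIRT1 regulator and substrate genes (medians 0.14 and 0.00) reached 2-fold in either direction. At the shares over all genes, lists this small would hold few such genes or none.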

How the data were processed

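The deposited values are linear intensities per transcript, RMA gene calls per the file headers, with background correction, normalization and probe summary done by the authors. No label or header names the software. Per the file headers the annotation is on build hg18. A column headed as a standard error has no stated unit and was not used. A deposited value table repeats the intensities of 31275 transcripts, those at 50 or more on each of the 3 arrays, and was used as an alternative. Intensities were taken as log2 values without further scaling, and 2086 transcripts without a gene name were left out. Symbols were updated by Entrez number through a RefSeq table of GRCh38.p14, used for names and promoter sequences only, and 27 of the 36 genes had a promoter entry.

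Each group holds 1 array, so differences were described by a rule of size, 2-fold, with 1.5-fold as an alternative. The rule was also run on simulated arrays with known changes and an assumed normal noise. That noise was not taken from replicate cultures, so the run cannot show how the rule performs on these arrays. Alternatives changed the summary of transcripts, the offset, the floor, the centring of arrays, the filter and the set of transcripts. Full values were planned for genes above the filter with a 1.5-fold difference, 7 genes of interest and genes whose transcripts disagreed by over 1 log2 unit. The 7 were NAMPT, NNMT, SIRT1, PARP1, IDO1, KYNU and CD38, which overlap the first set. Levels of the other listed genes were given as well. Companion genes were named at 2-fold, except those under the other observations, which were chosen after their values were seen. The members, lists and rules were chosen with earlier results of these data known. Python 3.11.15, pandas 2.3.3 and NumPy 2.4.6 were used.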

Additional observations from a re-analysis of the deposited data

How the results depend on the processing

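With 1 array per group no setting gives an error between cultures, and few probes at low signal limit the dim genes. No paired analysis was possible because each group holds 1 array. Counts of 0 to 3 genes change easily. For ATRA against control, the number of genes at least 2-fold higher was 0, but 1 (NAMPT) with the median of transcripts, 1 (IDO1) with no filter on level and 3 at a fold of 1.5. The number at least 2-fold lower was 1, but 2 with no filter, 3 at a fold of 1.5, and 0 with the brightest transcript, the value table, the filter at the 75th percentile, or genes with more than 1 transcript only. For ATRA+NIC against ATRA, the number higher was 1, but 0 under those same 4 settings and also 0 with an offset of 100 or with intensities under 50 set to 50. The number lower was 1 (NAMPT), but 2 with no filter and 3 at a fold of 1.5. For ATRA+NIC against control, the number higher was 0, but 2 (IDO1 and TDO2) with no filter, and the number lower was 1, but 0 under the same 4 settings. The setting for genes with more than 1 transcript was chosen after seeing the data. IDO2 has 1 dim transcript, which the value table and that setting leave out by construction. With the brightest transcript its differences were unchanged. It left the counts there and at the 75th percentile because it did not pass the filter in those settings. Medians of the genes counted lay between 0.03 and 0.30, between −0.06 and 0.19, and between −0.02 and 0.08 in these comparisons. The ends 0.03 and −0.02 are medians of all 36 genes with no filter. NAMPT kept its sign in every setting run, from −1.49 to −1.22 for ATRA+NIC against ATRA and from 0.68 to 1.20 for ATRA against control. SIRT1 lay between −0.96 and −0.80 and between 0.68 and 0.81. SIRT5 for ATRA against control was −0.12 with the brightest transcript.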

Other observations

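Among PARP genes outside the list, PARP9, PARP10, PARP12 and PARP14, which are known as interferon-responsive members of the family, were higher with ATRA+NIC than in control, by 0.74, 0.93, 0.40 and 0.61 on the log2 scale. With ATRA against control their differences were 0.08, 0.34, 0.48 and 0.66. PARP10 read 10.41 with ATRA+NIC, 9.82 with ATRA and 9.48 in control. ZC3HAV1, another interferon-responsive member, differed by 0.12 for ATRA+NIC against control and −0.15 for ATRA against control. These genes were chosen after their values were seen.

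FOXO1, FOXO3 and FOXO4, transcription factor genes whose proteins are known SIRT1 substrates, were higher with ATRA than in control by 0.33, 0.78 and 0.69 and lower with ATRA+NIC than with ATRA by −0.45, −0.60 and −0.94. SUV39H1, which encodes a histone methyltransferase and SIRT1 substrate, had −0.55 and 0.60 in these comparisons. These genes too were chosen after their values were seen, and the comparisons share the ATRA array.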
